A study of Mus musculus with 4 samples.

Results

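The Notch pathway was followed through 10 of its genes: the receptors Notch1, Notch2 and Notch3, the ligands Jag1, Jag2, Dll1 and Dll4, the receptor-modifying enzyme Lfng, and the target genes Hes1 and Hey1. They were found by symbol among the 31053 genes of the deposited matrices, and all 10 were present. The samples were oviducts and uteri of untreated, wild-type CD1 mice at postnatal day 3, with 2 single-cell RNA libraries for each organ. By the design text, the libraries were pools of 3 or of 4 neonates, and both organs were taken from the same animals. Enzymes (Dispase II, Collagenase B, DNase I) freed the cells, and the 10x Genomics Chromium 3' chemistry counted UMIs (unique molecular identifiers, 1 for each captured RNA molecule). A UMI sits at the 3' end of an RNA, so levels of different genes were not ranked against each other.

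Notch signalling passes between touching cells. A ligand of the Jagged or Delta-like family on the surface of a cell pulls on a Notch receptor of its neighbour, proteases then cut the receptor, and its freed intracellular part enters the nucleus, binds the DNA-binding protein RBPJ and switches on genes such as those of the Hes and Hey families of repressors. Fringe enzymes such as Lfng add sugars to the receptor, which favours Delta-like over Jagged ligands. In blood vessels, Dll4 with Notch1 marks arterial endothelium, and Jag1 with Notch3 serves the pericytes and smooth muscle around it.

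The 4 libraries held 5716 to 7808 called barcodes with 61117726 to 114419939 UMIs each, and 20164 cells passed the filters. Cells were placed in 7 compared classes by a score of marker genes per cell, with no Notch gene among the markers: epithelium-like, mesothelium-like, mesenchyme-like, smooth muscle-like, pericyte-like, blood endothelium-like and myeloid-like cells, written below without "like". The classes are ranges of a score. Mesenchyme held 9394 cells and smooth muscle 2385. Within 0.05 of a threshold lay 2572 cells for mesenchyme and 1338 for smooth muscle. These counts can include cells just outside the class, so they are not shares of it. The median mesenchyme score of smooth muscle cells was 0.390 and 0.388 in the oviduct libraries, below that of mesenchyme cells (0.552 and 0.545), and 0.490 and 0.466 in the uterine ones, above that of mesenchyme cells (0.457 and 0.457). Epithelium was small, at 117 and 185 cells for the oviduct and 36 and 39 for the uterus. Counts were summed per class and library and are given as UMIs per 1000000 UMIs of that sum (CPM), and the sums held 287272 to 44348440 UMIs. Any pair of libraries shared 8 to 15 barcodes. Foxj1, the master regulator of ciliated cells, which line the oviduct, was at 58.8 and 57.8 CPM in oviduct epithelium and 8.09 and 6.02 in uterine epithelium. Exons of Notch3 and Dll1 overlap those of the opposite-strand genes Gm17276 and A930024N18Rik, which had 49 and 25 UMIs over the compared classes against 5588 and 361. Exons of Notch1 (0610009E02Rik and Gm13568) and Dll4 (Gm14207) also overlap opposite-strand genes and those of Notch2 the same-strand gene Gm42820. These 4 genes are not among the genes of the deposited matrices. Whether any of their reads were counted to the members is not known. The strand setting of the counting is not given in the sources used here.

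RefSeq promoter entries (GRCm38.p6) were matched for 8 of the 10 members, and, among the other pathway genes looked up, for Notch4, Rbpj, Hey2 and Nrarp. The bases before the start of transcription are shown for Jag1 and Lfng, which moved in opposite directions between the organs in the stroma, and for Hey2 and Nrarp, which had their highest levels in pericytes and in endothelium. Bases annotated as exon were left out. Capitals mark the letters GTGGGAA, the core that RBPJ binds, and CACGTG, an E box of the kind that Hes and Hey proteins can bind, each searched on both strands.
Jag1, chr2:137116645-137116770, minus strand: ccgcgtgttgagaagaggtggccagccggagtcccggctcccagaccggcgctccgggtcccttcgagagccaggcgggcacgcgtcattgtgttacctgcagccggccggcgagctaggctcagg
Lfng, chr5:140607091-140607319, plus strand: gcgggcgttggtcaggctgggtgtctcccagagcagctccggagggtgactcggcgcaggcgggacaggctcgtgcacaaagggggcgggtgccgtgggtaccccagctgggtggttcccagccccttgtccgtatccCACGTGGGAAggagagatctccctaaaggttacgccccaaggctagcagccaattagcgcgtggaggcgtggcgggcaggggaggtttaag
Hey2, chr10:30842802-30843033, minus strand: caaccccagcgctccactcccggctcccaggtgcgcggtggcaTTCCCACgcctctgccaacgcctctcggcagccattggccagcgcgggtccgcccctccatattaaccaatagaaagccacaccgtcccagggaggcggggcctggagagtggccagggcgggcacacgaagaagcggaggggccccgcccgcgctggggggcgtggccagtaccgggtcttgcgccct
Nrarp, chr2:25180508-25180757, plus strand: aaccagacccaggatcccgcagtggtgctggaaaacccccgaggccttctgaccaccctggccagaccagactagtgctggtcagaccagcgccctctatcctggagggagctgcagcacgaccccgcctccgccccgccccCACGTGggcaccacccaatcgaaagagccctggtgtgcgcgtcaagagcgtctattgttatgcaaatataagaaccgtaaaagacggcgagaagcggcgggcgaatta
In the 250 bases before the start, GTGGGAA was present in 5.415% of 32851 mouse promoters and CACGTG in 6.021%. Lfng held both, the E box running into the RBPJ letters as 1 stretch, which 24 promoters (0.073%) held. Hey2 held GTGGGAA on the opposite strand and Nrarp held CACGTG. Neither set of letters occurred in this window in Jag1 or in the other 6 matched members, nor in Notch4 or Rbpj.

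Blood endothelium or pericytes had the highest mean level of 8 of the 10 members, the exceptions being Notch2 (epithelium) and Lfng (myeloid cells). Each class was tested against the mean of the other 6 over 13925 genes (edgeR quasi-likelihood test with library as a block, adjusted p under 0.05). Here and below, this mean is taken on the log scale, so that classes with very low levels pull it down. A member called higher can thus lie below the plain mean of the others in CPM. Notch3 did so in mesenchyme, with a mean of 18.05 CPM against 251 in pericytes. In epithelium Notch1 and Notch3 did so too, with means of 39.5 and 21.2 CPM against 108 and 251 in pericytes. Each share in parentheses is that of all genes called the same way. In endothelium 7 members were higher (28.5% of genes) and 2 lower (24.0%), with 52.5% of genes called in all. In pericytes 6 members were higher (21.1% of genes) and 2 lower (15.8%), with 36.9% of genes called in all. Notch2 was among the 6, though its mean of 25.1 CPM ranked pericytes 6 of the 7 classes. In epithelium 6 members were higher (32.7% of genes) and 0 lower (24.2%), with 56.9% of genes called in all. In mesothelium 4 members were higher (30.5% of genes) and 3 lower (20.8%), with 51.3% of genes called in all. In mesenchyme 2 members were higher (26.8% of genes) and 5 lower (20.2%), with 47.0% of genes called in all. In myeloid cells 2 members were higher (22.2% of genes) and 4 lower (24.5%), with 46.7% of genes called in all. In smooth muscle 1 member was higher (26.9% of genes) and 4 lower (19.9%), with 46.9% of genes called in all. The higher one was Notch2, whose mean of 27.5 CPM ranked smooth muscle 5 of the 7 classes. Notch2 was called higher in every class but endothelium, whose mean of 1.41 CPM lowers the mean of the others. Some of the class calls were lost under an alternative. In pericytes Notch2 was lost without uterus 1 (adjusted p = 0.234), without uterus 2 (0.165) and with classes from clusters (0.404), and Lfng without oviduct 1 (0.110), oviduct 2 (0.132) or uterus 1 (0.0505). The lower call of Notch3 was lost without uterus 1 and with free RNA subtracted, in endothelium (0.0684 and 1.00) and in mesothelium (0.116 and 1.00). Dll1 was lost in mesothelium without oviduct 1 (0.0638) or oviduct 2 (0.308) and in mesenchyme without oviduct 1 (0.119) or uterus 1 (0.191). In mesenchyme Jag1 was lost without oviduct 1 (0.107), uterus 1 (0.0950) or uterus 2 (0.0954) and with free RNA subtracted (0.136), as was Notch1 with free RNA subtracted (0.414). Hey1 in myeloid cells was lost with classes from clusters (0.238). The median difference of the members was 2.08 on the log2 scale in endothelium and 1.19 in pericytes, where the medians of all genes lay within 0.05 of 0.

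**Figure D1:**
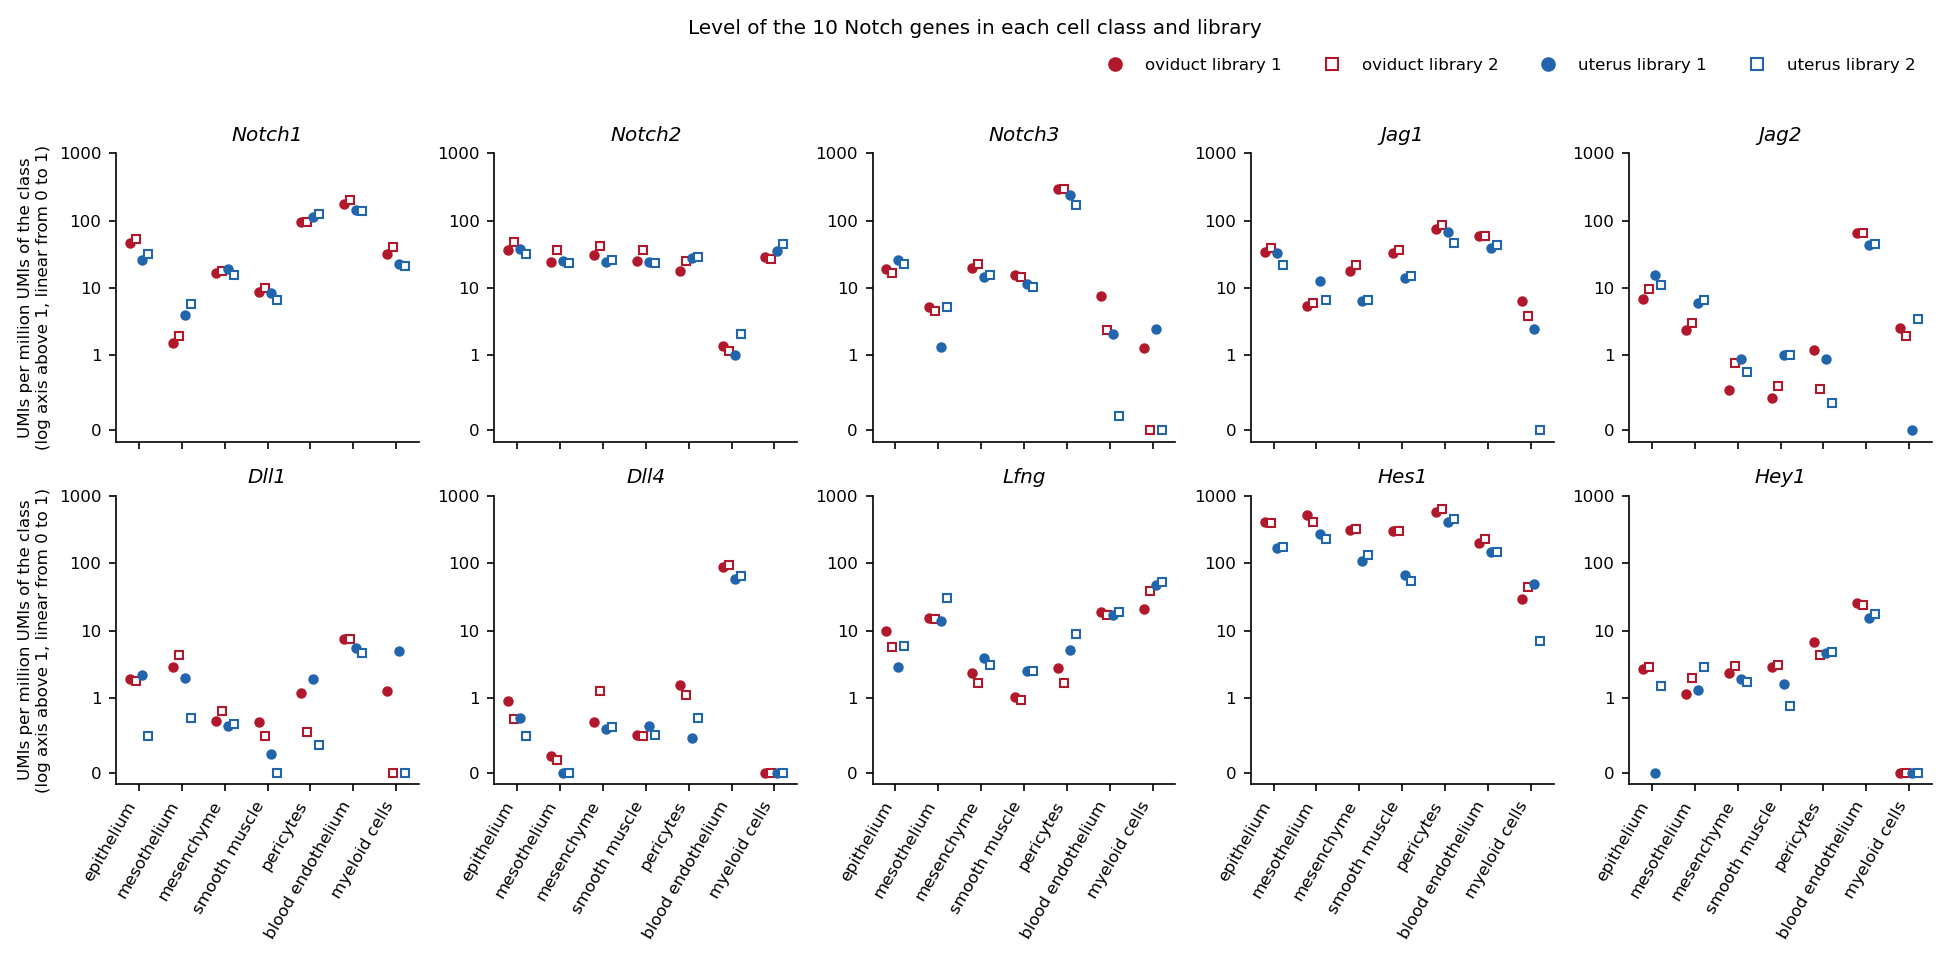
Level of each of the 10 Notch genes (y axis, CPM, UMIs per 1000000 UMIs of the class, logarithmic above 1 and linear from 0 to 1) in 7 cell classes (x axis). Each point is 1 library, red for oviduct and blue for uterus, filled circles for replicate 1 and open squares for replicate 2. Dll4 and Jag2 stood highest in blood endothelium and Notch3 in pericytes, Notch2 was lowest in blood endothelium, and both red Hes1 points lay above both blue ones in 6 of the 7 classes.

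The Delta-like ligand Dll4 (ENSMUSG00000027314, chr2:119325784-119335666), which governs the choice between tip and stalk cells in growing vessels, was counted at 89.1 and 95.9 CPM in the endothelium of the oviduct libraries and at 59.1 and 63.9 in that of the uterine ones. In the other 6 classes it lay between 0 and 1.59, and no Dll4 UMI was counted in myeloid cells, where 3 UMIs, the most that a count of 0 allows, would be 3.90 to 10.4 CPM. The class difference was 7.94 ± 0.14 on the log2 scale (SE, adjusted p = 4.98e-21), and the mean endothelial level of 77.01 was 78.8-fold that of pericytes, the next class. The mean of the others includes the myeloid cells without a UMI. The size of the class difference was 7.07 by DESeq2 and 7.90 with classes from clusters. A Dll4 UMI was seen in 51.9 to 56.1% of endothelial cells, of median depth 13243 to 18507 UMIs, and in 24.4 to 38.1% once cells were thinned to 5000 UMIs, which left out 17, 22, 41 and 37 shallower cells. In pericytes, of median depth 11310 to 13119.5 UMIs, 0.599 to 1.67% of cells held one.

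Dll1 (ENSMUSG00000014773, chr17:15367354-15376932), a ligand best known from somites and neural progenitors, was sparse, with 361 UMIs over all 7 classes. It too was highest in endothelium, at 7.42, 7.63, 5.63 and 4.66 CPM in oviduct 1, oviduct 2, uterus 1 and uterus 2, the order used for every series of 4 values below. These values lay above all those of mesothelium, the next class by mean, where it was at 0.737 to 4.39. Myeloid cells, at 0 to 4.98, overlapped the lowest endothelial value. The class difference in endothelium was 2.48 ± 0.28 (log2, adjusted p = 6.11e-08).

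Of the Jagged ligands, Jag2 (ENSMUSG00000002799, chr12:112907803-112929812) was found mainly in endothelium and epithelium. It was counted at 64.99, 64.5, 44.01 and 45.5 CPM in endothelium, at 6.88, 9.55, 15.4 and 11.03 in epithelium, and at 1.19 or below in every sum of mesenchyme, smooth muscle and pericytes. Mesothelium had 2.35 to 6.63 and myeloid cells 0 to 3.48. Endothelium and epithelium did not overlap, and both exceeded the mean of the other classes (log2 differences 4.90 ± 0.17 and 2.07 ± 0.24, adjusted p = 1.98e-17 and 8.55e-08). Jag1 (ENSMUSG00000027276, chr2:137081451-137116520), a ligand through which endothelium and mural cells signal to each other, was spread over the vessel wall, the epithelium and the stroma. Its mean level was 69.1 ± 16.7 in pericytes (SD over 4 libraries) and 50.6 ± 11.1 in endothelium, and the values of these classes overlapped. Epithelium followed with 32.02 ± 7.15, below all values of endothelium and overlapping smooth muscle (24.7 ± 11.8). Pericytes, endothelium and epithelium exceeded the mean of the others by 2.21 ± 0.20, 1.68 ± 0.19 and 0.92 ± 0.22 (log2, adjusted p = 2.8e-09, 9.25e-08 and 0.000946).

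The receptors divided the classes differently. Notch1 (ENSMUSG00000026923, chr2:26457902-26503822), a main receptor of arterial endothelium, was counted at 178, 200.1, 146 and 139 CPM in endothelium and at 96.8, 96.5, 115 and 124 in pericytes. The endothelial values all lay above the pericyte values, and these above the highest epithelial value of 53.4. Both vessel classes exceeded the mean of the others, by 3.09 ± 0.13 and 2.43 ± 0.15 (log2, adjusted p = 1.32e-15 and 3.53e-12). Notch1 was lowest in mesothelium, at 1.55, 1.93, 4.02 and 5.89, where free RNA could supply up to 100% of its UMIs in oviduct 1.

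Notch3 (ENSMUSG00000038146, chr17:32120820-32166896), the receptor of vascular mural cells, was highest in pericytes in both organs. Its level there was 296, 296, 239 and 172 CPM, against at most 26.5 in any sum of the other 6 classes. The class difference was 5.29 ± 0.18 (log2, adjusted p = 4.1e-17). A Notch3 UMI was seen in 78.8 to 83.9% of pericytes (55.1 to 65.7% at 5000 UMIs a cell, which left out 14, 15, 16 and 15 cells) and in 0.556 to 6.58% of endothelial cells.

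Notch2 (ENSMUSG00000027878, chr3:98013538-98150367), a receptor that many epithelia and stromal cells use, was nearly even across the classes outside endothelium. In those 6 classes its sums ranged from 17.8 to 47.6 CPM, and each class overlapped the next in the order of mean levels. In endothelium it was counted at 1.40, 1.17, 1.02 and 2.05, from 4 to 11 UMIs a library, and the class difference was −4.38 ± 0.22 (log2, adjusted p = 1.44e-14). Free RNA could supply at least 83.4% of these few UMIs in each library.

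Lfng (ENSMUSG00000029570, chr5:140607341-140615545), the Fringe enzyme among the members, was counted at 20.8, 38.8, 47.3 and 52.2 CPM in myeloid cells, from 15 to 20 UMIs a library, at 14.1 to 30.2 in mesothelium and at 18.9, 17.01, 16.9 and 18.8 in endothelium. Its order of classes put myeloid cells first, and neighbours among these 3 overlapped. They exceeded the mean of the others by 2.71 ± 0.33, 1.31 ± 0.23 and 1.33 ± 0.22 (log2, adjusted p = 1.88e-07, 4.21e-05 and 2.19e-05). In mesenchyme and smooth muscle it lay between 0.981 and 3.91, with differences of −1.78 ± 0.25 and −2.54 ± 0.30 (adjusted p = 3.41e-06 and 3.19e-07).

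The target Hes1 (ENSMUSG00000022528, chr16:30065357-30067796), a repressor that holds progenitors back from differentiating and that signals other than Notch can also induce, was found in all classes. Pericytes had the highest mean, 517 ± 102 CPM (SD over 4 libraries), followed by mesothelium (358 ± 132), epithelium (288 ± 136), mesenchyme (218 ± 113), endothelium (181 ± 39.8) and smooth muscle (180.4 ± 138), and each overlapped the next. Myeloid cells lay below all of these, at 29.9, 44.7, 49.8 and 6.96. Pericytes, mesothelium and epithelium were above the mean of the others, by 1.72 ± 0.19, 0.93 ± 0.20 and 0.60 ± 0.21 (log2, adjusted p = 1.34e-07, 0.000468 and 0.0147). The call in epithelium was lost without oviduct 1 (adjusted p = 0.105) or oviduct 2 (0.0790).

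Hey1 (ENSMUSG00000040289, chr3:8663359-8667038), a target used in arterial specification, was counted at 26.1, 23.8, 15.4 and 17.7 CPM in endothelium and at 6.74, 4.44, 4.74 and 4.79 in pericytes. In epithelium, mesothelium, mesenchyme and smooth muscle it was at 3.14 or below. No Hey1 UMI was counted in myeloid cells, where 3 UMIs would be 3.90 to 10.4 CPM, a range that holds the pericyte levels. The values of endothelium did not overlap those of pericytes, nor these those of mesenchyme, the next class. Endothelium and pericytes exceeded the mean of the others by 4.31 ± 0.27 and 2.04 ± 0.49 (log2, adjusted p = 1.37e-11 and 0.00258). That mean includes the myeloid cells without a UMI, and the sizes depended on the method. They were 3.42 and 1.23 by DESeq2 and 3.15 and 0.92 with classes from clusters.

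Among 45 other genes of the pathway 40 were tested between the classes. In endothelium 16 were higher (28.5% of all genes) and 10 lower (24.0%), and in pericytes 10 were higher (21.1%) and 11 lower (15.8%). The list's median difference was 0.10 in endothelium and −0.07 in pericytes (log2). Heyl, a target of the same family as Hey1, was counted at 101 to 117 CPM in pericytes and at 4.41 or below in every other sum, and Hey2 at 29.95 to 55.01 and 3.58 or below wherever UMIs were counted. Hey2 had none in myeloid cells, where the same 3.90 to 10.4 CPM apply. Nrarp, a target that feeds back on the Notch complex, was at 97.2 to 115 in endothelium, 51.2 to 89.3 in pericytes and 5.15 or below in the rest. Endothelium also held the receptor Notch4, at 35.04 to 41.5 against at most 4.98 elsewhere, and the Fringe enzyme Mfng, at 125 to 144 against at most 17.5. Rbpj, the DNA-binding partner of all Notch receptors, was highest in myeloid cells, at 212 to 300.0, and had its lowest mean in endothelium, at 39.1 to 54.8. Hey2 and Mfng were chosen for this description after their values were seen.

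Genes whose levels ran most like those of a member over the 28 sums of class and library were picked among 8803 genes by Pearson's r of log2(CPM + 1). The sums share libraries and depth, so these values are descriptive. Dll4 ran with Myct1, Erg and Cyyr1 (r = 0.98 to 0.99), genes of endothelium, Hey1 with Ecscr, Mmrn2 and Dysf (0.91), and Jag2 with Spns2, Slc16a13 and AU021092 (0.91 to 0.95). Notch3 ran with Hrc, Sept11 and Gucy1a2 (0.88 to 0.89), Notch1 with Lrch1, Cpne2 and Ddah1 (0.89 to 0.92), Notch2 with Mlec and Psd3 (0.92 to 0.93), and Jag1 with Asap2, Nhs and Hoxb2 (0.87 to 0.88). Hes1 ran with Spry2, a feedback inhibitor of receptor tyrosine kinases, and with Hspb11 and Adcy6 (0.89 to 0.92). Lfng ran with Sptlc2, Ube2d3 and Rnf115 (0.89 to 0.91), and Dll1 with Plekhg5, Card10 and Znrf1 (0.84 to 0.87).

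Between the organs, the oviduct had more Hes1 in 6 classes, more Jag1 in the stroma and less Lfng there. The calls of Hes1 in endothelium and of Lfng in smooth muscle held in 8 and 9 of 15 alternatives. Both were lost whichever library was left out. Each class was tested with 2 oviduct against 2 uterine libraries by edgeR, and p-values were adjusted over all genes of the class. In mesenchyme 4 of 10 members tested were higher in the oviduct (24.2% of genes) and 1 lower (21.4%), with 45.5% of genes called in all. In smooth muscle 3 of 7 members tested were higher in the oviduct (14.4% of genes) and 1 lower (11.8%), with 26.2% of genes called in all. In epithelium 2 of 8 members tested were higher in the oviduct (13.3% of genes) and 0 lower (7.98%), with 21.3% of genes called in all. With no scaling beyond the total, 1323 genes were higher and 1471 lower in oviduct epithelium, against 1621 and 973 with the scaling used (TMM). The share of members called was near that of all genes in mesenchyme and epithelium. In pericytes 2 of 7 members tested were higher in the oviduct (3.18% of genes) and 0 lower (1.61%), with 4.78% of genes called in all. In endothelium 2 of 9 members tested were higher in the oviduct (2.13% of genes) and 0 lower (0.575%), with 2.71% of genes called in all. In mesothelium 1 of 9 members tested were higher in the oviduct (4.85% of genes) and 0 lower (3.50%), with 8.35% of genes called in all. In myeloid cells 0 of 4 were called by edgeR or DESeq2 and 0 had an unadjusted p under 0.05, beside 0.239% and 0.120% of genes called higher and lower and 0.359% in all. Members left untested were too low in that class.

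**Figure D2:**
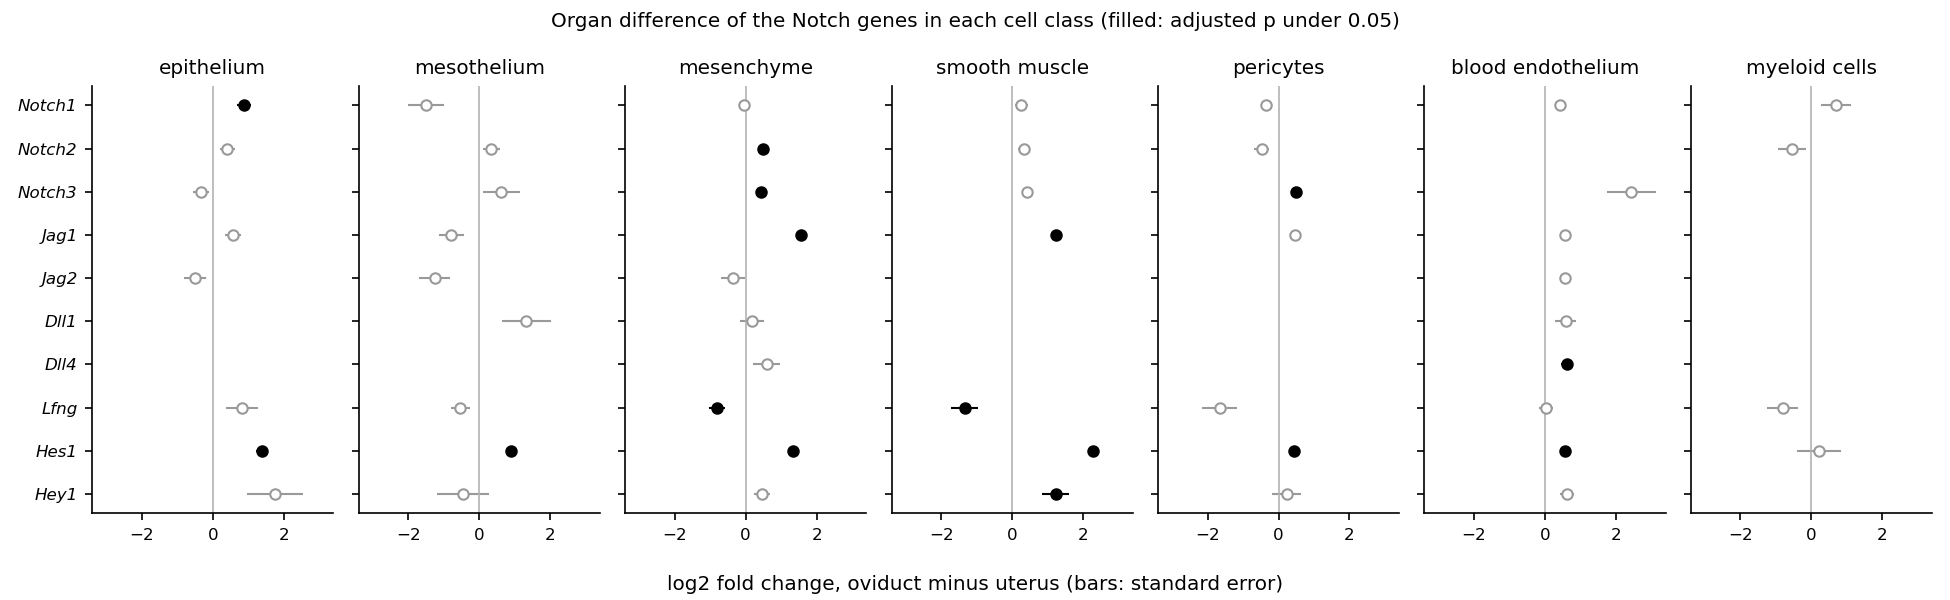
Difference between the organs for each member (x axis, log2 fold change, oviduct minus uterus) in 7 cell classes. Bars show 1 standard error, derived from the F statistic of the test. Filled points passed an adjusted p of 0.05 and open points did not, and members too low to test have no point. Hes1 was filled and to the right of 0 in 6 classes, and Lfng was filled and to the left of 0 in mesenchyme and smooth muscle.

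Hes1 differed in the most classes. In smooth muscle it was counted at 298 and 301 CPM in the oviduct libraries against 67.4 and 55.1 in the uterine ones, and in mesenchyme at 309 and 322 against 108 and 134. The oviduct values were higher without overlap in both, by 2.27 ± 0.10 and 1.33 ± 0.10 (log2, adjusted p = 1.3e-08 and 4.63e-07). Smooth muscle cells of the uterus also scored higher for mesenchyme markers than those of the oviduct (medians given above), and the part of this mixture in every organ difference of smooth muscle was not tested. With classes taken from clusters, which shared 45.5% of the smooth muscle cells, the smooth muscle difference was 1.26 (adjusted p = 3.35e-08). At 5000 UMIs a cell, 48.7 and 45.9% of smooth muscle cells of the oviduct held a Hes1 UMI against 18.3 and 13.9% in the uterus (61.7, 60.1, 27.1 and 28.3% before thinning, which left out 24, 24, 11 and 7 cells). In myeloid cells, the class with the least Hes1, 3.57 to 13.6% of cells held one before thinning, at a median depth of 2368 to 6172 UMIs against 13967 to 16680.5 in smooth muscle.

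In epithelium Hes1 was at 414 and 397 CPM in the oviduct against 166 and 174 in the uterus, and in mesothelium at 519.6 and 411 against 269.5 and 232. Neither class overlapped between the organs (log2 differences 1.39 ± 0.17 and 0.89 ± 0.14, adjusted p = 7.33e-05 and 0.00112). At 5000 UMIs a cell, the share of epithelial cells with a Hes1 UMI was 79.8 and 66.03% in the oviduct against 61.5 and 70.8% in the uterus, from 24 to 156 cells a library, and these values overlapped.

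In pericytes Hes1 was at 575 and 631 CPM against 415 and 448, and in endothelium at 199 and 228 against 147 and 149. The oviduct values were again the higher, by 0.44 ± 0.10 and 0.56 ± 0.14 (log2, adjusted p = 0.0224 and 0.0498). The pericyte call was lost without uterus 1 (difference 0.37, adjusted p = 0.161). The endothelial call was lost with the replicate block, which pairs libraries of the same number, taken to be of the same neonates (adjusted p = 0.188) and without oviduct 1 (0.0598), oviduct 2 (0.311), uterus 1 (0.295) or uterus 2 (0.129). It was also lost with no scaling beyond the total (0.0584) and with free RNA subtracted (0.0659).

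The immediate-early genes, which cells switch on within minutes of stimulation or of tissue dissociation, moved with Hes1. The summed level of 8 of them (Fos, Fosb, Jun, Junb, Egr1, Atf3, Ier2 and Dusp1, a list added after the data were seen) was 6361 and 8295 CPM in oviduct mesenchyme and 2718 and 3648 in uterine mesenchyme, and 4764 and 6966 against 2648 and 3721 in smooth muscle. In epithelium it was 7097 and 8328 against 3978 and 3119, in pericytes 4793 and 5117 against 3232 and 3909 and in endothelium 2918 and 3918 against 1668 and 2170.0. Of the 8 genes, 8 were called higher in the oviduct in mesenchyme (24.2% of all genes), 7 in smooth muscle (14.4%), 6 in epithelium (13.3%), 6 in endothelium (2.13%) and 5 in pericytes (3.18%), and none was called lower. In mesothelium, where Hes1 was also higher in the oviduct, the sums of 8704 and 13058 and 6949 and 11022 overlapped and 1 gene was called. Mesenchyme markers summed to 6147 and 5394 in oviduct mesothelium and 9152 and 7477 in uterine mesothelium, and their part in that difference was not tested. Of 3 heat shock genes, a list also added later, Hspa1a and Hspa1b were lower in oviduct mesenchyme and Dnajb1 was higher (−1.84 ± 0.17, −1.82 ± 0.10 and 0.50 ± 0.10 on the log2 scale, adjusted p = 2.32e-06, 1.88e-08 and 0.00175). The heat shock genes gave 1 higher (14.4% of all genes) and 2 lower calls (11.8%) in smooth muscle, with a median of −1.63. In epithelium they gave 1 (13.3%) and 2 (7.98%), with a median of −1.33. In endothelium 2 were lower (0.575% of all genes, median −1.68) and in pericytes 1 (1.61%, median −0.46). Their median in mesothelium was −0.37, and the part of the heat shock genes in the Hes1 differences was not tested.

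Cells were therefore divided by whether they held a UMI of Atf3, a stress-induced transcription factor of that list. An Atf3 UMI was seen in 56.7, 56.5, 14.4 and 23.03% of mesenchyme cells, 59.1, 63.05, 15.3 and 27.4% of smooth muscle cells and 76.1, 82.2, 55.6 and 58.97% of epithelial cells. In mesenchyme cells without one, Hes1 was at 189 and 189 CPM in the oviduct against 73.3 and 72.5 in the uterus, a ratio of means of 2.59. In mesenchyme cells with one it was at 377 and 397 against 289 and 329.6, a ratio of 1.25. Hes1 was thus higher in Atf3-positive cells of each library, and higher in the oviduct on both sides of the division. The division did not separate cells without immediate-early expression. In mesenchyme cells without an Atf3 UMI, Fos was at 1202 and 1621 CPM in the oviduct against 558 and 479.7 in the uterus, a ratio of 2.72, and the ratio of Junb was 2.88. In those with one, the ratios were 1.16 for Fos and 1.60 for Junb.

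**Figure D3:**
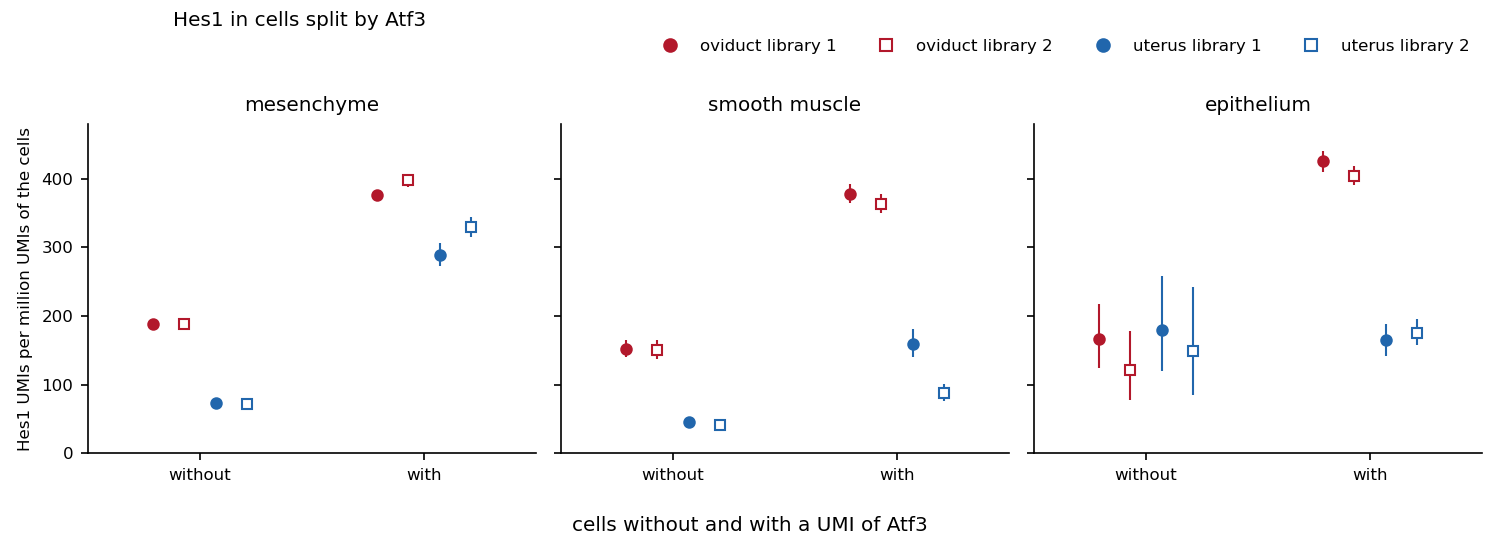
Hes1 (y axis from 0, CPM, UMIs per 1000000 UMIs of the cells) in cells without and with a UMI of Atf3 (x axis), in mesenchyme, smooth muscle and epithelium. Points are libraries, red for oviduct and blue for uterus, with exact Poisson 95% intervals that cover counting error only. In mesenchyme and smooth muscle the oviduct points lay above the uterine ones on both sides, and in epithelium only in cells with an Atf3 UMI.

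Smooth muscle showed the organ difference in both kinds of cell, at 152 and 151 against 46.2 and 41.5 without an Atf3 UMI and 378 and 364 against 159 and 87.9 with one (ratios 3.46 and 3.00). In epithelium it was present with an Atf3 UMI, at 425 and 404 against 164 and 176. Without one, the values of 166 and 121 in the oviduct against 179 and 149.5 in the uterus overlapped, and they rest on 52, 25, 29 and 16 Hes1 UMIs in cells of median depth 2490 to 8284 UMIs. Without an Atf3 UMI, Fos still differed in smooth muscle, at 799.9 and 1279 against 534 and 552 (ratio 1.91), and in epithelium, at 262 and 315 against 55.7 and 159 (2.69). The ratio of Junb in these cells was 1.82 in smooth muscle and 1.66 in epithelium. In smooth muscle the Junb values overlapped, with a lowest oviduct value of 294 and a highest uterine value of 333. Having an Atf3 UMI also depends on how deeply a cell was read, and the part of immediate-early expression in the Hes1 differences was not tested.

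Jag1 was higher in the oviduct stroma. Mesenchyme had 17.8 and 21.98 CPM in the oviduct libraries against 6.33 and 6.55 in the uterine ones, and smooth muscle 32.7 and 36.98 against 14.2 and 14.9. In both classes the oviduct values lay above the uterine ones, with log2 differences of 1.57 ± 0.12 and 1.24 ± 0.12 (adjusted p = 3.03e-07 and 1.29e-05). In pericytes it was at 76.1 and 85.97 against 67.3 and 46.8 (log2 difference 0.48 ± 0.16, adjusted p = 0.138), which passed with the replicate block (0.0298) and without uterus 1 (0.00277). In endothelium it was at 59.98 and 60.1 against 39.1 and 43.1 (0.57 ± 0.15, adjusted p = 0.0602) and in epithelium at 33.9 and 39.05 against 33.1 and 22.1 (0.57 ± 0.23, adjusted p = 0.0884). In mesothelium the uterine values were the higher, at 5.40 and 5.97 against 12.7 and 6.63 without overlap, and the difference of −0.79 ± 0.35 (adjusted p = 0.214) did not pass.

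Lfng was lower in the oviduct stroma, at a low level. Mesenchyme had 2.35 and 1.67 CPM in the oviduct against 3.91 and 3.06 in the uterus, from 48 to 104 UMIs a library, and smooth muscle 1.02 and 0.981 against 2.51 and 2.55, from 10 to 20 UMIs. The uterine values were all the higher, and the log2 differences were −0.82 ± 0.23 and −1.34 ± 0.37 (adjusted p = 0.0107 and 0.0194). The mesenchyme call was lost without uterus 1 (difference −0.66, adjusted p = 0.0682). The smooth muscle call was lost by DESeq2 (0.185), with classes from clusters (0.0656) and without oviduct 1 (0.0669), oviduct 2 (0.0783), uterus 1 (0.113) or uterus 2 (0.130).

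**Figure D4:**
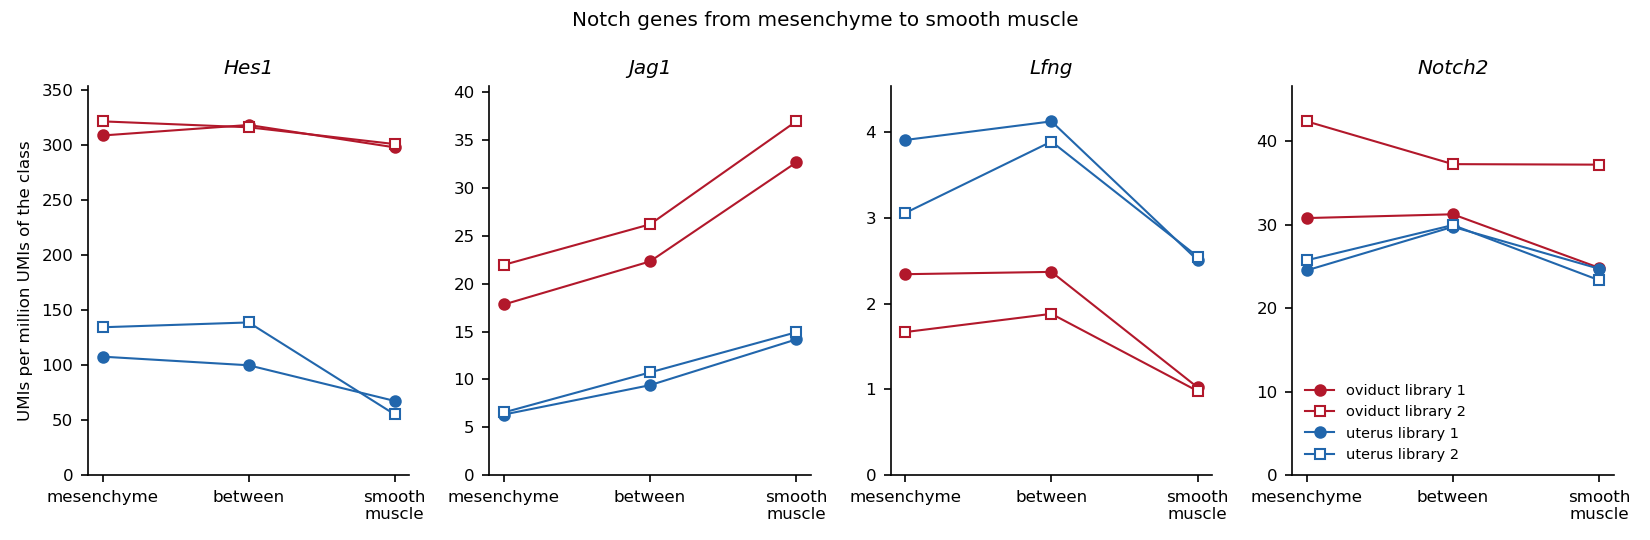
Levels of Hes1, Jag1, Lfng and Notch2 (y axes from 0, CPM, UMIs per 1000000 UMIs of the class) in mesenchyme, in cells between the mesenchyme and smooth muscle thresholds, and in smooth muscle (x axis). Each line joins the 3 values of 1 library, red for oviduct and blue for uterus. The oviduct lines of Hes1 and Jag1 lay above the uterine lines at all 3 steps and those of Lfng below them, and Jag1 was higher in smooth muscle than in mesenchyme in each library.

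Cells whose scores fell between mesenchyme and smooth muscle, 579 to 716 a library, had the organ pattern of both neighbours. Hes1 was at 318 and 316 CPM there in the oviduct against 99.8 and 139 in the uterus, and Lfng at 2.37 and 1.88 against 4.13 and 3.89. Jag1, at 22.3 and 26.2 against 9.39 and 10.7, lay between the levels of mesenchyme and smooth muscle in each of the 4 libraries.

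Receptors differed between the organs too. In mesenchyme Notch2 was at 30.8 and 42.4 CPM against 24.5 and 25.7 and Notch3 at 19.8 and 22.4 against 14.4 and 15.6. Both were higher in the oviduct without overlap, by 0.48 ± 0.12 and 0.43 ± 0.09 (log2, adjusted p = 0.00631 and 0.00248), and oviduct 2 had the highest Notch2 value. Without oviduct 2 the Notch2 difference was 0.26 (adjusted p = 0.0497). Notch3 in smooth muscle, at 15.4 and 14.4 against 11.4 and 10.5, differed by 0.43 ± 0.15 (adjusted p = 0.0569) and passed with the replicate block (0.0450), with no filter on low counts (0.0465), with doublets kept (0.0338) and with free RNA subtracted (0.0463).

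In pericytes, its main class, Notch3 was at 296 and 296 CPM in the oviduct against 239 and 172 in the uterus, without overlap. The difference of 0.50 ± 0.13 (log2, adjusted p = 0.0484) was lost without oviduct 1 (0.0557), without uterus 2, where it was 0.28 (0.385), and by DESeq2 (0.117). It was also lost with RLE scaling (0.0512), with crossed replicate numbers (0.0648), with free RNA subtracted (0.0633) and in cells of at least 3000 UMIs (0.0551). The summed smooth muscle markers of these pericytes were also higher in the oviduct, at 4193 and 4067 against 2291 and 2027, and their part in this difference was not tested. The other receptors ran the other way in pericytes and did not pass: Notch1 was at 96.8 and 96.5 against 115 and 124 (−0.35 ± 0.12, adjusted p = 0.138), without overlap, and Notch2 at 17.8 and 25.5 against 27.98 and 29.1 (−0.47 ± 0.21, 0.277). Notch1 in epithelium was at 46.1 and 53.4 against 26.5 and 32.1, higher in the oviduct by 0.88 ± 0.21 (adjusted p = 0.00772). The uterine libraries gave 100 epithelial Notch1 UMIs together. Cells with a Foxj1 UMI made up 43.6 and 41.1% of oviduct epithelium and 22.2 and 12.8% of uterine epithelium, and their part in the Notch1 difference was not tested.

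Hey1 in smooth muscle was at 2.90 and 3.14 CPM in the oviduct against 1.63 and 0.893 in the uterus, from 34, 32, 13 and 7 UMIs. The oviduct values were the higher, by 1.23 ± 0.37 (log2, adjusted p = 0.0290). The call was lost without oviduct 1 (0.0513), oviduct 2 (0.0761) or uterus 2 (0.219), by DESeq2 (0.202) and with classes from clusters (0.104).

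In endothelium Dll4 was the ligand called higher in the oviduct. At 89.1 and 95.9 CPM against 59.1 and 63.9, it differed by 0.61 ± 0.15 (log2, adjusted p = 0.0352), without overlap. The call was lost with the replicate block (0.0699), by DESeq2 (0.0799), with no scaling beyond the total (0.0504) and without oviduct 2 (0.109), uterus 1 (0.266) or uterus 2 (0.0512). Jag2 differed by 0.56 ± 0.15 (adjusted p = 0.0571), Hey1 by 0.62 ± 0.19 (0.122) and Notch1 by 0.43 ± 0.14 (0.149), none of which passed. Lfng, at 18.9, 17.01, 16.9 and 18.8, differed by 0.04 ± 0.19 (adjusted p = 0.975). Notch3 in endothelium rests on 38, 8, 8 and 1 UMIs (difference 2.43 ± 0.70, adjusted p = 0.0888, and 0.00237 with the replicate block, 2.88e-05 without oviduct 2, 8.05e-05 with no filter on low counts and 0.00141 with doublets kept), beside summed pericyte markers of 233, 187, 163 and 143 CPM in these cells, whose part was not tested.

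Of 6 arterial genes, 2 were called between the organs, beside 2.71% of all genes. The sum of the 6 (Gja5, Gja4, Sox17, Efnb2, Bmx and Sema3g, a list added after the data were seen) was 814, 517, 516 and 496 CPM in endothelium, and Gja5 and Sema3g were called higher in the oviduct (1.20 ± 0.26 and 1.46 ± 0.20 on the log2 scale, adjusted p = 0.0220 and 0.00102). The sum was highest in oviduct 1, and that of oviduct 2 was close to that of uterus 1. Bmx, Gja4, Efnb2 and Sox17 did not pass, with log2 differences of 1.16 ± 0.34, 0.78 ± 0.23, 0.52 ± 0.14 and 0.02 ± 0.20 (adjusted p = 0.1004, 0.110, 0.0753 and 0.985). A UMI of Gja5, Sema3g or Bmx was held by 25.7, 23.7, 15.4 and 12.2% of endothelial cells, or 39, 32, 26 and 22 cells. Of the 6 listed genes, those used for this division had the largest log2 differences above. The higher oviduct shares can thus follow from the choice of genes. Holding such a UMI also depends on how deeply a cell was read.

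Dll4, Jag1, Jag2, Notch1 and Hey1 were higher in cells with such a UMI in every library. Dll4 was at 129.8, 232, 72.5 and 125 CPM with it and 56.6, 57.9, 54.9 and 46.4 without it, and Jag1 at 103, 167, 77.8 and 125 against 25.95, 30.1, 26.9 and 19.5. Hey1 was at 54.7, 76.3, 28.8 and 60.7 against 3.24, 9.02, 11.1 and 5.29, Jag2 at 103, 131, 71.4 and 81.5 against 34.97, 45.8, 35.4 and 35.1, and Notch1 at 245, 310.5, 189 and 247 against 124, 169, 133 and 108. The receptor Notch4 was likewise higher with such a UMI in every library, at 56.98, 69.6, 74.6 and 67.3 against 29.2, 30.1, 30.98 and 25.7. Nrarp was at 125, 123, 96.96 and 131 with such a UMI and 104, 113, 97.3 and 106 without, higher in 3 of 4 libraries, Lfng at 21.3, 12.05, 18.1 and 20.8 against 16.9, 18.4, 16.5 and 18.3, Dll1 at 4.07, 10.7, 6.39 and 5.82 against 10.1, 6.76, 5.39 and 4.33, and Mfng at 139.7, 131, 129 and 143 against 129, 125, 124 and 144. Hes1 was nearly alike on both sides, at 200.3, 256, 156 and 141 with and 199, 220.2, 144 and 151 without. The oviduct to uterus ratio of mean Dll4 was 1.83 in cells with an arterial UMI and 1.13 in cells without, and the part of arterial cells in the organ difference was not tested.

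**Figure D5:**
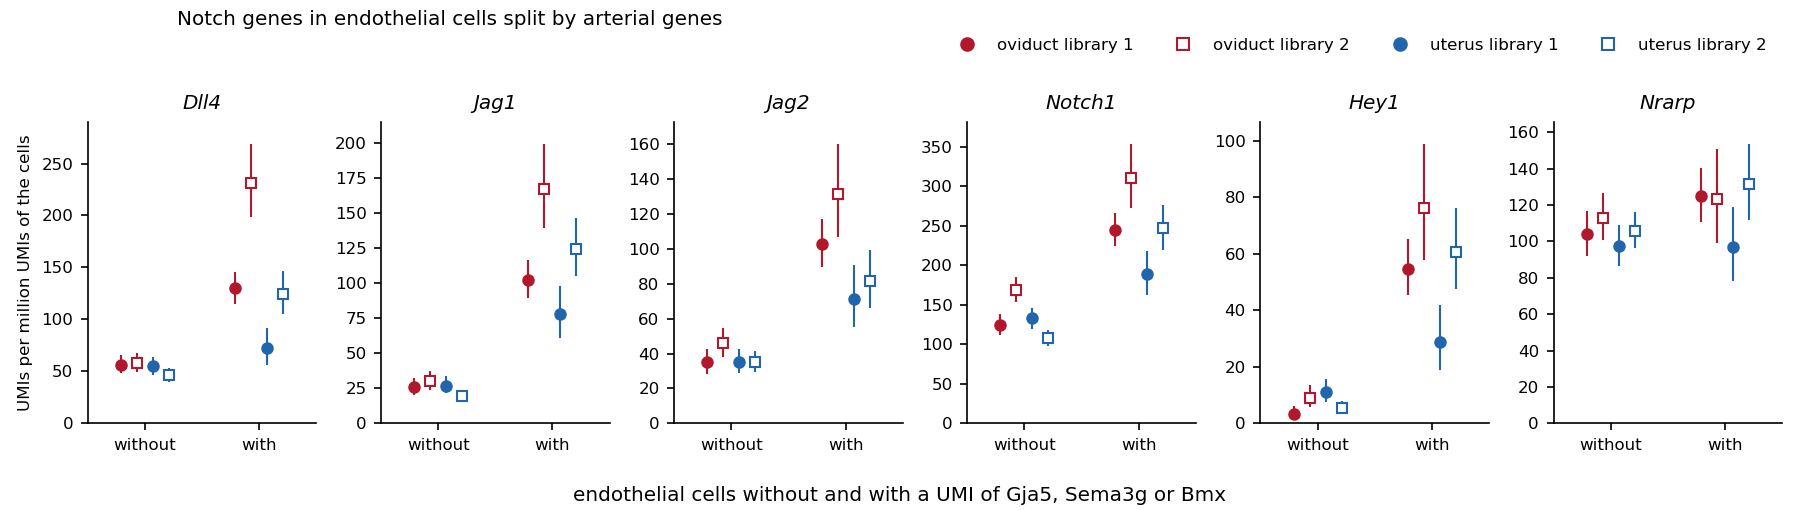
Levels of Dll4, Jag1, Jag2, Notch1, Hey1 and Nrarp (y axes, CPM, UMIs per 1000000 UMIs of the cells) in blood endothelial cells without and with a UMI of Gja5, Sema3g or Bmx (x axis). Points are libraries, red for oviduct and blue for uterus, with exact Poisson 95% intervals that cover counting error only. The points with such a UMI lay higher in every library for Dll4, Jag1, Jag2, Notch1 and Hey1.

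Whether the organs differed alike in epithelium and in mesenchyme was tested by an interaction term, beside 19.1% of 15435 genes called and a median of 0.12 over all genes. It was called for 4 of 10 members: Notch1 (0.99 ± 0.21 on the log2 scale, epithelium minus mesenchyme, adjusted p = 0.000547), Jag1 (−0.90 ± 0.24, 0.00483), Lfng (1.75 ± 0.49, 0.00782) and Notch3 (−0.68 ± 0.24, 0.0435). For Jag1 the oviduct excess was the larger in mesenchyme. Notch3 was higher in oviduct mesenchyme, while its epithelial values of 18.9, 16.6, 26.5 and 23.1 CPM lay lower in the oviduct (−0.34 ± 0.23, adjusted p = 0.333). Notch1 was higher in oviduct epithelium, while its mesenchyme values of 16.9, 17.8, 19.02 and 15.4 overlapped (−0.04 ± 0.10, adjusted p = 0.765). Lfng was lower in oviduct mesenchyme, while its epithelial values of 9.77, 5.73, 2.94 and 6.02 overlapped (0.83 ± 0.45, adjusted p = 0.218). DESeq2 called none of the 4, and none was called without uterus 1, whose epithelium held 36 cells. The term for Hes1 was 0.15 ± 0.16 (adjusted p = 0.613). Differences between other classes were not tested.

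Among the 45 other genes of the pathway, the share called between the organs was near that of all genes in mesenchyme and smooth muscle. It was below the share of all genes in epithelium and above it in pericytes. In mesenchyme 17 of 42 tested were called, 10 higher in the oviduct and 7 lower, beside 45.5% of all genes. In smooth muscle 8 of 37 were called, 7 higher and 1 lower, beside 26.2% of all genes. The list's median difference was 0.08 and 0.08 on the log2 scale in these classes, and the medians over all genes lay within 0.05 of 0. Dlk1, a Delta-like protein without the receptor-activating domain, was at 1765 and 1585 CPM in oviduct mesenchyme and 423 and 483 in uterine mesenchyme (1.83 ± 0.10, adjusted p = 1.46e-08), and at 1016 and 847 against 420.0 and 492 in smooth muscle (1.01 ± 0.11, 3.49e-05). It went the other way in pericytes, at 556 and 396 against 640.2 and 865 (−0.70 ± 0.17, 0.0279), a call lost without uterus 2 (0.0575) and by DESeq2 (0.673).

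Also higher in oviduct mesenchyme was the protease Furin, which cuts the receptor on its way to the surface (0.46 ± 0.08 on the log2 scale, adjusted p = 0.00073). Snw1, a coactivator, Itch, a ubiquitin ligase, and Poglut1, a glucosyltransferase of the receptor, were lower, with log2 differences of −0.37 ± 0.08, −0.26 ± 0.08 and −0.25 ± 0.08 (adjusted p = 0.00255, 0.0193 and 0.0272). The call of Itch was lost without oviduct 1 (0.0696) or uterus 1 (0.145) and with classes from clusters (0.0995), and that of Poglut1 without any 1 of the libraries (0.0514, 0.0967, 0.0929 and 0.0683) and by DESeq2 (0.118). In smooth muscle Rbpj was at 160.2 and 156 CPM against 123 and 114 (0.40 ± 0.09, adjusted p = 0.00512) and Hes6, a Hes relative that opposes Hes1, at 38.2 and 34.8 against 23.3 and 18.5 (0.79 ± 0.13, 0.000656).

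In epithelium 2 of 34 other pathway genes were higher in the oviduct and 2 lower, beside 21.3% of all genes called. The coactivator Maml3 was at 33.7 and 44.3 CPM against 21.3 and 18.05 (1.14 ± 0.24, adjusted p = 0.00352), and Dtx4, below the level set for naming and chosen after its values were seen, differed by 1.56 ± 0.28 (0.00126). Rbpj, at 42.9 and 40.8 against 66.2 and 70.7, and Hes6, at 45.01 and 37.7 against 61.8 and 73.2, were lower in the oviduct (−0.58 ± 0.18 and −0.58 ± 0.19, 0.0324 and 0.0428). Both calls were lost with the replicate block (0.107 and 0.104), by DESeq2 (0.134 and 0.155) and without oviduct 2 (0.192 and 0.296) or uterus 2 (0.215 and 0.332), and that of Rbpj also without oviduct 1 (0.0965). The direction of Rbpj and Hes6 was thus opposite in smooth muscle and epithelium; that contrast was not tested, while the interaction of epithelium with mesenchyme was called for both (−0.66 ± 0.17 and −0.80 ± 0.18, 0.00412 and 0.000723).

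In pericytes 1 of 34 was higher and 4 were lower, beside 4.78% of all genes called. The targets parted there: Nrarp was at 82.5 and 89.3 CPM in the oviduct against 53.6 and 51.2 in the uterus (0.67 ± 0.13, adjusted p = 0.00880), Hey2 at 34.9 and 29.95 against 55.01 and 45.7 (−0.65 ± 0.17, 0.0423), and Heyl at 117 and 101 against 116 and 103 (−0.04 ± 0.13, 0.929). The Hey2 call was lost without oviduct 2 (0.154) or uterus 1 (0.109), with classes from clusters (0.1003) and by DESeq2 (0.425), which did not call Nrarp either (0.113). In endothelium 1 of 33 was called, beside 2.71% of all genes. It was Dlk1, named after its values were seen, at 47.1 and 13.2 against 6.65 and 12.1 (1.73 ± 0.43, 0.0420). Oviduct 1 stood apart, oviduct 2 was close to uterus 2, and without oviduct 1 the difference was 0.46 (0.588). The call was also lost without uterus 1 (0.256), with classes from clusters (0.177) and by DESeq2 (0.959). Endothelial Notch4 and Nrarp differed by 0.11 ± 0.16 and 0.15 ± 0.15 (adjusted p = 0.864 and 0.775). In mesothelium 3 of 34 were lower in the oviduct (8.35% of all genes called) and in myeloid cells edgeR called 0 of 17 (0.359%).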

How the data were processed

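The deposited matrices hold UMI counts per gene and cell barcode, which the authors made with Cell Ranger (6.0.1 in the headers of the called-cell matrices, per the file headers). Headers of the all-barcode matrices name Cell Ranger 4. Free RNA was estimated from the all-barcode matrices, so its bounds and its subtraction join counts of both versions. The submitters' processing notes also name mm10 and Seurat 4.2.3; whether intronic reads or strand were used is not given in the sources used here. The 10 members, the pathway list and the marker lists were chosen with earlier results of these data known, score thresholds were set after the scores were seen, and the immediate-early, heat shock and arterial lists and the divisions of cells were added later.

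Called barcodes entered with 500 or more genes and no more than 15% of UMIs from mitochondrial genes. The cells with the highest Scrublet scores were removed as doublets at 0.8% per 1000 called barcodes, 1162 in all. A cell joined a class other than mesenchyme or smooth muscle at a marker score of at least 0.3, with 3 or more markers detected and a margin of 0.1 over the next of these classes. Of the remaining cells under 0.3 for these classes (a granulosa list was not counted), those with a smooth muscle score of at least 0.4 were smooth muscle whatever their mesenchyme score, and those under 0.25 with a mesenchyme score of at least 0.3 were mesenchyme. In all, 27.0% of cells were in none of the 7 compared classes. The alternative classes came from 27 clusters (scanpy 1.11.5, igraph 0.11.9). The upper bound on free RNA was at most 27.6% of a compared sum, in mesothelium of uterus 1, and was 75.6 to 91.2% in erythroid droplets, which were left out.

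Counts were summed per library and class and tested by edgeR 4.0.16 (quasi-likelihood, R 4.3.3, limma 3.58.1), with Benjamini-Hochberg adjustment over all genes tested and a threshold of 0.05; DESeq2 1.42.0 was an alternative. Intervals and floors cover counting error only. Each standard error beside an edgeR difference was derived from the test, as the absolute log2 difference divided by the square root of its F statistic. It is not a separate estimate of the spread. Beside the members, the text names Notch4, Heyl, Nrarp and Rbpj, and in epithelium, mesenchyme, smooth muscle and blood endothelium the 3 largest called differences of pathway genes per direction with a mean of at least 20 CPM; the 3 genes most like each member were taken by correlation. A few genes that these rules pick are not reported here. The design text gives both organs the same pools of 3 and of 4 neonates without saying which number is which pool, and same-numbered libraries were taken as pairs in the replicate block. The correlation of their deviations from the organ means was 0.27 in mesenchyme, 0.16 in mesothelium and smooth muscle, 0.02 in pericytes, −0.15 in myeloid cells, −0.26 in endothelium and −0.29 in epithelium.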

Additional observations from a re-analysis of the deposited data

Results flagged for a closer look

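For 4 members the difference between the organs was not alike in epithelium and mesenchyme by a test of that difference itself. Notch1 was higher in oviduct epithelium, with overlapping values in mesenchyme, and the effects differed by 0.99 ± 0.21 on the log2 scale (edgeR, adjusted p = 0.000547). The value was 0.62 without uterus 1 (adjusted p = 0.0725) and its adjusted p was 0.0722 by DESeq2. Jag1 had the larger oviduct excess in mesenchyme, with −0.90 ± 0.24 (adjusted p = 0.00483), against −0.72 without uterus 1 (0.0888) and an adjusted p of 0.0520 by DESeq2.

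Lfng was lower in oviduct mesenchyme, with overlapping values in epithelium, and the effects differed by 1.75 ± 0.49 (adjusted p = 0.00782). It was 1.12 without uterus 1 (0.192) and 1.51 without oviduct 1 (0.0858), against 2.65 without uterus 2 (0.00242), and DESeq2 gave an adjusted p of 0.177. Notch3 was higher in oviduct mesenchyme and lay lower in oviduct epithelium, where it did not pass, and the effects differed by −0.68 ± 0.24 (adjusted p = 0.0435), and its call was lost without oviduct 2 (−0.51, adjusted p = 0.314), uterus 1 (−0.66, 0.120) or uterus 2 (−0.82, 0.0603) and by DESeq2 (0.198). It was also lost with the stricter cell filter (0.0547), with doublets kept (0.0523), with free RNA subtracted (0.0632) and in cells of at least 3000 UMIs (0.0557). Uterine epithelium gave 4 and 12 Lfng UMIs and 36 and 46 Notch3 UMIs in its libraries.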

How the results depend on the processing

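Of 916 alternatives of the 68 called values, 846 kept the call, 70 lost it and 0 changed sign; of 913 alternatives of 66 values not called, 46 gained a call and 46 changed sign. Organ differences of Hes1 in epithelium, mesenchyme, mesothelium and smooth muscle, Jag1 in mesenchyme and smooth muscle, Notch1 in epithelium and Notch2 and Notch3 in mesenchyme kept their calls in all 15 alternatives run for each. The number of members called for the organ difference moved most in endothelium, from 2 to 1 by DESeq2, 0 with no scaling beyond the total, 5 with no filter on low counts, 4 with doublets kept, 3 with the stricter cell filter and in cells of at least 3000 UMIs, 1 with free RNA subtracted and 0 to 1 with 1 library left out. Blocking on the pairing of libraries (the replicate block) gave 1 there. That call was a gained one of Notch3, and those of Dll4 and Hes1 were lost. In pericytes the 2 became 1 by DESeq2, with RLE scaling, with free RNA subtracted and in cells of at least 3000 UMIs, 3 with no filter, the replicate block and doublets kept, and 1 to 3 with 1 library left out. In smooth muscle the 4 became 2 by DESeq2 and with classes from clusters, 6 with no filter, 5 with the replicate block, doublets kept and free RNA subtracted, and 2 to 3 with 1 library left out. In mesenchyme the 5 became 6 with classes from clusters and 4 to 5 with 1 library left out, and in epithelium the 2 became 3 with crossed numbers and 2 to 3 with 1 library left out. In mesothelium the 1 became 2 with classes from clusters and 1 to 2 with 1 library left out. For the interaction the 4 became 0 by DESeq2, 3 with the stricter cell filter, with doublets kept, with free RNA subtracted and in cells of at least 3000 UMIs, and 0 to 3 with 1 library left out. Leaving out the scaling beyond the total moved the median of all genes by −0.13 (log2) for the organ difference in epithelium and by −0.27 for the interaction. The cause of these shifts was not tested. Crossing the replicate numbers, chosen after seeing the data, gave 7 members in endothelium and 1 in pericytes.

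Over all genes, the replicate block called 1608 in mesothelium against 1064, 768 in pericytes against 506 and 44 in myeloid cells against 21; beyond the calls named beside their results it changed no other call of a member between the organs. DESeq2 called 154 in endothelium against 301, 1477 in epithelium against 2594, 678 in mesothelium, 247 in pericytes and 2080 in smooth muscle against 3396. With no filter the counts were 552 in endothelium, 807 in pericytes and 161 in myeloid cells, with doublets kept 476 in endothelium and 789 in pericytes, and with free RNA subtracted 595 in mesothelium. Crossed numbers gave 789 in endothelium and 137 in myeloid cells, and the stricter cell filter 12 in the latter. Without uterus 1 endothelium had 103, without oviduct 2 epithelium had 1605, and with 1 library left out myeloid cells had 57 to 238. Low counts limit Dll1 (361 UMIs over the 7 classes), Hey1 (879), and Notch3 and Notch2 in endothelium, at 1 to 38 and 4 to 11 UMIs a library.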

Other observations

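Oviduct epithelial cells were described apart by whether they held a UMI of Foxj1, with no test. Those with one, 51 and 76 cells in oviduct 1 and oviduct 2, had Notch1 at 50.7 and 58.1 CPM against 34.9 and 39.7 in those without. Notch3 was at 16.3 and 16.1 against 25.003 and 18.02, Rbpj at 37.5 and 39.9 against 56.1 and 43.4, and Hes1 at 421 and 391 against 399 and 415. Notch1 was higher with a Foxj1 UMI in both libraries and Notch3 was lower in both. The Foxj1-positive cells were deeper, with medians of 79648 and 59969 UMIs against 16451 and 15072.

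Dner, an atypical Notch ligand that is below the level set for naming and was chosen after its values were seen, was at 12.4 and 12.1 CPM in oviduct mesenchyme and 0.458 and 0.271 in uterine mesenchyme (log2 difference 5.02 ± 0.21, edgeR adjusted p = 1.42e-09).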
